A study of Mus musculus with 8 samples.

Results

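Lysosomal hydrolases and membrane proteins were examined as a set of 34 mouse genes listed by name, each matched by its symbol to 1 row of a table of 25124 genes. The rule used no measured value, although the list was drawn up with earlier results of these data known. All 34 genes passed the filter on low values, a mean of at least 0.5 FPKM over the 8 libraries, as did 11700 genes of the table. By role the set held 11 glycosidases, 5 sulfatases, 6 lipid hydrolases and lipid hydrolase activators, a group of 4 with a peptidase, a thioesterase, a phosphatase and a nuclease, 7 lysosomal membrane proteins, and progranulin.

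RNA was sequenced from osteoclast precursor cells, macrophage-like cells grown from mouse bone marrow that become bone-resorbing osteoclasts under RANKL. The question was how extracellular peroxiredoxin 1 (PRDX1) alters their response to RANKL. There were 4 groups of 2 libraries, named here no PRDX1 + no RANKL, PRDX1 + no RANKL, no PRDX1 + RANKL and PRDX1 + RANKL. Every culture received M-CSF, the growth factor that keeps these cells alive, at 5 ng/mL for 16 h and then 30 ng/mL for 3 days before treatment, and at 30 ng/mL during it. PRDX1 was a recombinant protein made in bacteria, from which endotoxin was removed, and was given at 200 nM. RANKL was given at 100 ng/mL, and cells were harvested at 48 h. The labels give mice of 6 to 8 weeks of the strain C57BL/6, whereas the culture methods name ICR mice. Nothing in the labels says whether 2 libraries of a group came from separate animals or cultures, so p-values measure only the spread between these libraries, which may be technical.

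Lysosomal hydrolases are acid-active enzymes that are made in the endoplasmic reticulum, tagged with mannose phosphate in the Golgi and delivered to the lysosome, where each removes a particular sugar, sulfate, lipid or peptide. Membrane proteins such as LAMP1 and LAMP2 line the lysosome and protect it, and others carry ions, lipids or enzymes across or along that membrane. Macrophages hold many lysosomes for digestion of engulfed material, whereas osteoclasts send lysosomal enzymes and acid out towards bone.

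The values analysed were FPKM, fragments per kilobase of transcript scaled to the size of the library. Reads recovered from them came to 24542578 to 41712973 on genes per library, and the member with the fewest reads in any library, Idua, still had 536. Macrophage markers were abundant in every group: 8 of 8 were at 1 FPKM or more, and their sum was 15700 to 17500 FPKM without either agent, 16500 to 17000 with PRDX1, 9860 to 10300 with RANKL and 13400 to 13800 with both. Lyz2 alone averaged 14100, 14000, 8600 and 11600 FPKM of the macrophage sum in these groups. Over 8 osteoclast markers the sum was 32.4 to 33.5, 79.7 to 84.1, 1810 to 1910 and 234 to 241 FPKM in the same order. Of the 8, 3, 4, 8 and 6 were at 1 FPKM or more. Acp5 alone averaged 23.6, 53.7, 1100 and 162 FPKM, while Ctsk averaged 0.0825, 0.203, 168 and 8.29 FPKM. For 8 neutrophil and granule markers the sum was 8.19 to 12.2, 38.8 to 43.3, 16.2 to 16.6 and 34 to 37.5 FPKM, and for 8 stromal and osteoblast markers 8.76 to 11.5, 17.7 to 18.0, 8.99 to 10.9 and 16.6 to 20.5 FPKM. Most of the neutrophil sum came from S100a8, at means of 4.15, 17.2, 8.89 and 17.5 FPKM, and S100a9, at 4.31, 19.5, 5.74 and 14.3 FPKM. The neutrophil markers Ly6g, Camp and Ltf were under 1 FPKM in every library. The markers of B cells, T cells, erythroid cells, megakaryocytes and dendritic cells each summed to 2.13 FPKM or less in every library, and the defining marker Cd3e had at most 3 reads in any library. At these low levels the B cell sum was 0.589 to 0.976, 1.59 to 2.13, 0.631 to 0.922 and 1.37 to 1.61 FPKM in the same order. The megakaryocyte sum was 1.31 to 1.8, 1.85 to 2.12, 0.603 to 0.808 and 1.97 to 1.98 FPKM. Acp5 and Cd68, in the osteoclast and macrophage lists, also count among the further lysosomal genes described last. The macrophage, osteoclast, neutrophil, stromal, B cell and megakaryocyte sums moved with the groups compared below, and their part in the results on lysosomal genes was not tested. In bulk RNA, fewer cells of a type and less RNA per cell cannot be told apart.

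The 34 genes together took the largest share of reads with PRDX1 alone and the smallest with RANKL alone. Of all reads on genes, 1.71% and 1.78% were on them in the no PRDX1 + no RANKL libraries and 2.02% and 2.03% in the PRDX1 + no RANKL libraries. The share was 1.08% and 1.13% in the no PRDX1 + RANKL libraries and 1.55% and 1.59% in the PRDX1 + RANKL libraries. No 2 of the 4 groups overlapped in this share. Much of the signal came from few genes: Psap, Grn and Lamp1, with mean levels of 1519, 890.2 and 781 FPKM over the 8 libraries, made up 45.5% to 57.8% of the summed FPKM of the 34 genes. With these 3 left out the sum was 3060 and 3139 FPKM without either agent, 3183 and 3193 with PRDX1, 2134 and 2176 with RANKL, and 2517 and 2596 with both. The lowest levels were those of Idua and Sgsh, at 6.90 and 6.92 FPKM.

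**Figure D1:**
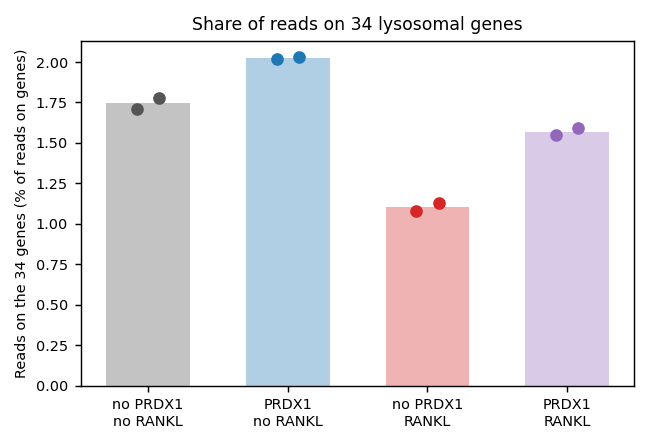
Share of reads on the 34 lysosomal genes, in percent of reads on genes (vertical axis), in the 4 groups (horizontal axis). Bars are means of 2 libraries and points are the libraries, from 1.08% in a no PRDX1 + RANKL library to 2.03% in a PRDX1 + no RANKL library.

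Each gene was compared on the scale of log2(FPKM + 1), on which differences understate the fold change of low genes, with limma across all 11700 genes. A gene was called when its Benjamini-Hochberg adjusted p was under 0.05 and its fold change at least 1.5, and the words rose and fell are kept for such genes. More members fell under RANKL without PRDX1 than in any other comparison: 12 of 34, or 35.3%, beside 9.96% of all genes tested. In that comparison 0 members rose by limma, beside 11.8% of all genes; 5 were higher at an unadjusted p under 0.05, and voom on the recovered reads also called 0. The median difference of the members was -0.44, beside 0.10 for all genes, and single members ranged from -1.52 to 0.54. With PRDX1 present, 5 members fell under RANKL (14.7%), beside 3.98% of all genes. There too 0 rose by limma or by voom, with 3 higher at an unadjusted p under 0.05, beside 4.52% of all genes called higher. The median was -0.23, beside 0.07 for all genes.

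Few members passed the fold threshold with PRDX1. With RANKL, 6 members rose (17.6%, beside 6.03% of all genes) and 2 fell (5.88%, beside 4.17%), and their median was 0.24, beside -0.06 for all genes. Those that rose were Psap, Grn, Gla, Pla2g15, Lipa and Lamp2, and those that fell were Arsb and Smpd1. Without RANKL, 1 member rose, Gla (2.94%, beside 3.80% of all genes), and 1 fell, Arsb (2.94%, beside 1.99%), shares near those of all genes. Their median was then 0.08, beside -0.04. Against cells given neither agent, cells given both had 1 member higher, Acp2 (beside 7.50% of all genes), and 4 lower, Arsb, Ppt1, Pla2g15 and Gusb (11.8%, beside 5.34%), with a median of -0.11, beside 0.03. That median was -0.17 when PRDX1 + RANKL replicate 2 was left out. The 2 PRDX1 comparisons have no library in common, whereas each RANKL comparison shares a group with each PRDX1 comparison.

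Many differences were small but larger than the spread between libraries. With the adjusted p alone and no fold threshold, PRDX1 with RANKL gave 20 members higher (58.8%, beside 16.9% of all genes), 5 lower (14.7%, beside 25.6%) and 9 past neither. PRDX1 without RANKL gave 14 higher (41.2%, beside 12.2%) and 3 lower (8.82%, beside 17.6%). RANKL without PRDX1 gave 5 higher (14.7%, beside 37.0%) and 23 lower (67.6%, beside 22.9%), and RANKL with PRDX1 gave 3 higher (8.82%, beside 26.2%) and 22 lower (64.7%, beside 14.4%). By group mean, 17 of the 34 genes (50%, beside 16.9% of all genes tested) were highest with PRDX1 alone and 21 (61.8%, beside 26.3%) were lowest with RANKL alone. Groups without overlap, named below for single genes, were common among all genes tested. PRDX1 libraries lay wholly above for 26.1% and below for 39.7% of genes without RANKL, and for 27.9% and 43.1% with it. RANKL libraries did so for 47.7% and 30.2% without PRDX1, and for 47.3% and 27.0% with it. Both agents against neither gave 41.6% and 33.0%.

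**Figure D2:**
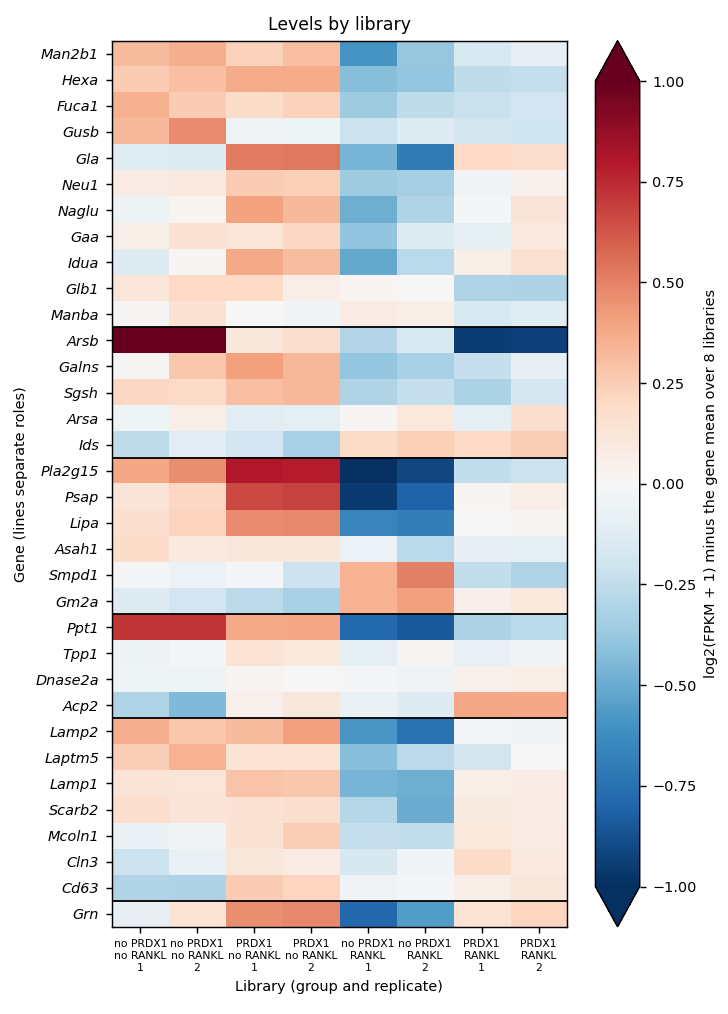
Levels of the 34 genes (rows, with lines between roles) in the 8 libraries (columns), as log2(FPKM + 1) minus the gene's mean over all libraries, with colours ending at 1 on either side. The no PRDX1 + RANKL columns are lowest for 21 genes by group mean, and Ids, Gm2a and Smpd1 are among the rows that run the other way.

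Promoters of the members were searched for the binding motif of the transcription factors TFEB, TFE3 and MITF, which are known to drive many lysosomal genes through an E-box, CACGTG, often within the longer palindrome TCACGTGA. RefSeq start sites on GRCm38.p6 gave windows of 250 bases before to 50 bases after the start for 32 of the 34 genes, 34 windows in all, with Asah1 and Galns unmatched. On either strand CACGTG lay in 9 of the 34 windows (26.5%), beside 7.15% of 32851 promoters in the table. TCACGTGA, which contains CACGTG and so is counted in both, lay in 3 windows (8.82%, beside 0.974%). TCATGTG, a related motif, lay in 5 (14.7%, beside 3.77%). The 9 genes with an E-box were Arsa, Cln3, Gaa, Gla, Glb1, Lamp1, Mcoln1, Naglu and Sgsh, and TCACGTGA was in Gla, Cln3 and Mcoln1. For Cln3 the motifs lay only in the window chr7:126583187-126583486. The window at the start of its counted transcript, chr7:126585768-126586067, held 0 E-boxes, though Cln3 is kept among the 9 genes. A match is a description and not a bound site, and no match says only that the letters are absent from the window. Under PRDX1 with RANKL the median difference was 0.27 over the 9 genes with an E-box and 0.25 over the 23 matched genes without one, and under RANKL without PRDX1 it was -0.37 and -0.57. By calls, 1 of the 9 and 5 of the 23 rose under PRDX1 with RANKL, beside 6.03% of all genes. In that comparison 0 and 2 fell, beside 4.17%. Under RANKL without PRDX1, 1 of the 9 and 11 of the 23 fell, beside 9.96% of all genes. The part of the motif in these changes was not tested. Windows are shown for Gla (chrX:134600956-134601255, minus strand), which rose with PRDX1 in both comparisons and holds TCACGTGA at 2 places, for Lamp1 (chr8:13158911-13159210, plus strand), with 4 E-boxes, for Mcoln1 (chr8:3500269-3500568, plus strand), a cation channel of the lysosome, and for Arsb (chr13:93771429-93771728, plus strand), which fell in all 5 pairwise comparisons and holds no E-box. They read 5′ to 3′ on the strand of the gene, with CACGTG in capitals.
Gla: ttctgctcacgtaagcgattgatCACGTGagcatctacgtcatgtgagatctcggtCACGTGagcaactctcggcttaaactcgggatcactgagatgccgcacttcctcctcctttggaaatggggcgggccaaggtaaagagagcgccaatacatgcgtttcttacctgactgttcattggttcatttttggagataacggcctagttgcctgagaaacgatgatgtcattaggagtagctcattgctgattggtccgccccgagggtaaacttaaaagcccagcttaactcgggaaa
Lamp1: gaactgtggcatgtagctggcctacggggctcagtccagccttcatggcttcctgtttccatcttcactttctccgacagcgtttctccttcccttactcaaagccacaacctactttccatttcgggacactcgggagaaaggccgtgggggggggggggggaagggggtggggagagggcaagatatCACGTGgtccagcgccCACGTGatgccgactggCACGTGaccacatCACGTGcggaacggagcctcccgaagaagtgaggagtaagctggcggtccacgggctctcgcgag
Mcoln1: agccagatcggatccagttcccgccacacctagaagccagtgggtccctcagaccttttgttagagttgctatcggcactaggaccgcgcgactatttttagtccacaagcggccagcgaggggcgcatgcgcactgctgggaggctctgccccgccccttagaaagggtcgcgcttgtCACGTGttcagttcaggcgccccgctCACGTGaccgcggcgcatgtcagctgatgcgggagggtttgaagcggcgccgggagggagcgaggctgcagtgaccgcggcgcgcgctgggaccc
Arsb: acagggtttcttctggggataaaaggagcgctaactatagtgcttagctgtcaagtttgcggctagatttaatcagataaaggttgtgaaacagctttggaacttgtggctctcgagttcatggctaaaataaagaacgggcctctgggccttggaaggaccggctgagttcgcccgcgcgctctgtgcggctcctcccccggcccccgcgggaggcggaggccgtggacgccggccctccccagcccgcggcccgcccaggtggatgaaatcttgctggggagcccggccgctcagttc
In Gla the E-boxes begin 227 and 194 bases before the start site, in Lamp1 61, 45, 28 and 15 bases before it, and in Mcoln1 71 and 45 bases before it.

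Glycosidases, which remove sugars from glycoproteins, glycolipids and glycosaminoglycans, were mostly lower under RANKL. Of 11, 3 fell under RANKL without PRDX1 (Man2b1, Hexa and Fuca1) beside 9.96% of all genes, and 9 were lower by the adjusted p alone, beside 22.9%, with a median difference of -0.43. Gla (mm10, chrX:134588169-134601005), the alpha-galactosidase that degrades globotriaosylceramide, had 30.7 and 30.3 FPKM without either agent, 48.3 and 48.7 with PRDX1, 23.9 and 20.2 with RANKL and 38.5 and 37.8 with both. Both PRDX1 libraries lay above both matched controls, with RANKL or without it. It rose by 0.65 ± 0.07 log2 (SE; adjusted p = 0.000111) with PRDX1 alone and by 0.77 ± 0.07 log2 (SE; adjusted p = 1.83e-05) with PRDX1 added to RANKL. The difference between these responses was 0.12 ± 0.10 log2 (SE; adjusted p = 0.465) and was not called.

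Hexa, the alpha subunit of beta-hexosaminidase, fell under RANKL from 388 ± 8.18 to 241 ± 4.99 FPKM (SD, n = 2), a difference of -0.68 ± 0.04 log2 (SE; adjusted p = 2.2e-07). It also fell under RANKL in the presence of PRDX1, with -0.61 ± 0.04 log2 (SE; adjusted p = 1.83e-06), a call lost under quantile normalization (-0.55). Man2b1, the lysosomal alpha-mannosidase, went from 120.3 ± 3.02 to 67.7 ± 7.09 FPKM, a difference of -0.82 ± 0.07 log2 (SE; adjusted p = 3.09e-06). Fuca1, the alpha-fucosidase, fell, with -0.61 ± 0.06 log2 (SE; adjusted p = 6.24e-06), but stood at -0.56 and below the fold threshold when no PRDX1 + no RANKL replicate 1 or no PRDX1 + RANKL replicate 1 was left out. Gusb, the beta-glucuronidase, was 285 ± 21 FPKM without either agent and 189 to 210 FPKM as the mean of each other group. Its difference between both agents and neither was -0.59 ± 0.05 log2 (SE; adjusted p = 1.35e-05), a call lost under quantile normalization (-0.54), voom (-0.58), and without no PRDX1 + no RANKL replicate 2 (-0.51) or PRDX1 + RANKL replicate 2 (-0.58). Under RANKL alone Gusb had -0.57 log2 (adjusted p = 8.83e-06), just under the fold threshold, and was called at -0.58 to -0.68 with quantile, upper quartile or median-of-ratios scaling, at -0.65 without no PRDX1 + no RANKL replicate 1 and at -0.62 when no PRDX1 + RANKL replicate 2 was left out.

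With PRDX1 added to RANKL, 7 of 11 glycosidases were higher by the adjusted p alone, beside 16.9% of all genes, and 2 were lower, beside 25.6%. Those higher besides Gla had 0.49 log2 (adjusted p = 0.00218) for Idua and 0.45 log2 (adjusted p = 0.00112) for Naglu, both enzymes of glycosaminoglycan breakdown, 0.37 log2 (adjusted p = 0.0016) for Man2b1, 0.35 log2 (adjusted p = 0.000467) for the sialidase Neu1, 0.27 log2 (adjusted p = 0.0442) for Gaa, which digests glycogen, and 0.16 log2 (adjusted p = 0.00829) for Hexa. Glb1, the beta-galactosidase, here counted on a noncoding RefSeq transcript of the gene, and Manba, the beta-mannosidase, had -0.31 log2 (adjusted p = 0.00269) and -0.21 log2 (adjusted p = 0.014). None of these 8 reached the fold threshold by limma with all libraries, and Idua did at 0.61 when no PRDX1 + RANKL replicate 2 was left out. Gusb had -0.02 and Fuca1 0.10 and passed neither.

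Sulfatases, which strip sulfate from glycosaminoglycans and sulfolipids, changed mainly through Arsb. Arsb (chr13:93771679-93943016), which acts on dermatan and chondroitin sulfate, had 106 and 109 FPKM without either agent, 56.7 and 59.2 with PRDX1, 42.4 and 46.8 with RANKL and 26.6 and 26.9 with both. Its 4 groups did not overlap, and both agents together gave the lowest level. Its difference with PRDX1 was -0.88 ± 0.06 log2 (SE; adjusted p = 3.65e-06) without RANKL and -0.72 ± 0.06 log2 (SE; adjusted p = 6.17e-06) with it. RANKL gave -1.25 ± 0.06 log2 (SE; adjusted p = 4.18e-08) without PRDX1 and -1.09 ± 0.06 log2 (SE; adjusted p = 4.58e-07) with it, and both agents against neither gave -1.96 ± 0.06 log2 (SE; adjusted p = 4.45e-09), the lowest value of any member in any comparison. The interaction was 0.16 ± 0.08 log2 (SE; adjusted p = 0.19). By GENCODE vM21 on GRCm38, 48.2% of the exon bases of Arsb also lie in Gm26527 and 11.5% in Gm47210, noncoding genes on the opposite strand, and reads were counted without strand, so the reads of these genes cannot be told apart.

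The other 4 sulfatases were not called in any comparison by limma on log2(FPKM + 1). Galns and Sgsh, which act on keratan and heparan sulfate, had -0.49 log2 (adjusted p = 0.000648) and -0.47 log2 (adjusted p = 0.000354) under RANKL alone. With PRDX1 present their RANKL differences were -0.53 log2 (adjusted p = 0.000949) and -0.56 log2 (adjusted p = 0.000276), near the fold threshold. Sgsh was then called at -0.61 to -0.64 by voom, with pseudocount 0.1, with quantile, upper quartile or median-of-ratios scaling, and when PRDX1 + RANKL replicate 2 was left out (-0.63). Galns was called at -0.59 with quantile normalization, -0.60 with median-of-ratios scaling and -0.60 when the same library was left out. Under RANKL alone Galns was called at -0.59 with median-of-ratios scaling and -0.62 without no PRDX1 + no RANKL replicate 1. Ids, the iduronate sulfatase, ran the other way, from 19.8 ± 1.47 FPKM without either agent to 26.4 ± 0.674 with RANKL (SD, n = 2), a difference of 0.40 log2 (adjusted p = 0.000667). Arsa, which acts on sulfatide, stayed between 13.0 and 14.6 FPKM in its group means and passed the adjusted p in none of the 6 contrasts. Of its exon bases 19.2%, and of those of Sgsh 21.9%, overlap a gene on the opposite strand. Overlaps of 0.9% to 12.4% of exon bases with another gene were found for Cln3, Glb1, Idua, Grn and Ppt1.

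Genes of lipid degradation held the largest increase with PRDX1 under RANKL: 3 of 6 rose (Psap, Pla2g15 and Lipa), beside 6.03% of all genes, and Smpd1 fell, beside 4.17%. The same Psap, Pla2g15 and Lipa fell under RANKL alone. Psap (chr10:60284461-60302600), the precursor of the saposins that present sphingolipids to hydrolases, had 1547 and 1640.0 FPKM without either agent, 2239.8 and 2265 with PRDX1, 729.8 and 808 with RANKL and 1438 and 1487 with both. The 2 RANKL libraries were the lowest and the 2 PRDX1 libraries the highest. Both agents together lay below the cells given neither, by a difference of -0.12 log2 (adjusted p = 0.0837) that was not called. Its difference with PRDX1 was 0.50 ± 0.05 log2 (SE; adjusted p = 8.57e-05) without RANKL, under the fold threshold, and 0.93 ± 0.05 log2 (SE; adjusted p = 6.66e-07) with RANKL. RANKL lowered Psap with a difference of -1.05 ± 0.05 log2 (SE; adjusted p = 8.06e-08) without PRDX1 and -0.62 ± 0.05 log2 (SE; adjusted p = 1.27e-05) with it, and the last became -0.23 under quantile normalization and was then not called.

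Lipa (chr19:34492316-34527474), the acid lipase that frees cholesterol from its esters, had 441 and 460.4 FPKM without either agent, 546 and 549.6 with PRDX1, 249 and 243 with RANKL and 393 and 402 with both. No groups overlapped, in the order RANKL, both, neither, PRDX1. Its differences were 0.69 ± 0.04 log2 (SE; adjusted p = 8.13e-07) for PRDX1 with RANKL and -0.87 ± 0.04 log2 (SE; adjusted p = 4.7e-08) for RANKL without PRDX1. For Pla2g15, the lysosomal phospholipase A, at chr8:106150354-106164718, levels were 41.3 and 43.8 FPKM without either agent, 55.4 and 54.9 with PRDX1, 14.5 and 16.2 with RANKL and 26.3 and 27.0 with both. The order was again RANKL, both, neither, PRDX1, without overlap. PRDX1 with RANKL gave 0.76 ± 0.06 log2 (SE; adjusted p = 8.1e-06), RANKL without PRDX1 -1.41 ± 0.06 log2 (SE; adjusted p = 3.3e-08) and RANKL with PRDX1 -1.02 ± 0.06 log2 (SE; adjusted p = 1.44e-06).

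Smpd1, the acid sphingomyelinase that makes ceramide, went against these. Smpd1 (chr7:105554360-105558389) had 17.2 and 16.7 FPKM without either agent, 17.2 and 14.9 with PRDX1, 22.4 and 25.1 with RANKL and 14.5 and 13.9 with both. Only the no PRDX1 + RANKL libraries stood above the rest, and the other 3 groups lay between 13.9 and 17.2 FPKM. The difference with PRDX1 was -0.70 ± 0.08 log2 (SE; adjusted p = 7e-05) under RANKL and -0.07 ± 0.08 log2 (SE; adjusted p = 0.533) without it. Gm2a, the activator that lifts ganglioside for hexosaminidase, was also highest with RANKL alone, at 48.0 ± 1.44, 43.7 ± 1.26, 70.2 ± 2.05 and 56.8 ± 1.36 FPKM (SD, n = 2), in the order neither, PRDX1, RANKL and both. Its RANKL difference of 0.54 log2 (adjusted p = 8.44e-06) was the highest of any member and below the fold threshold. Asah1, the acid ceramidase, had -0.30 log2 (adjusted p = 0.00212) under RANKL and 0.07 log2 (adjusted p = 0.404) with PRDX1 added.

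**Figure D3:**
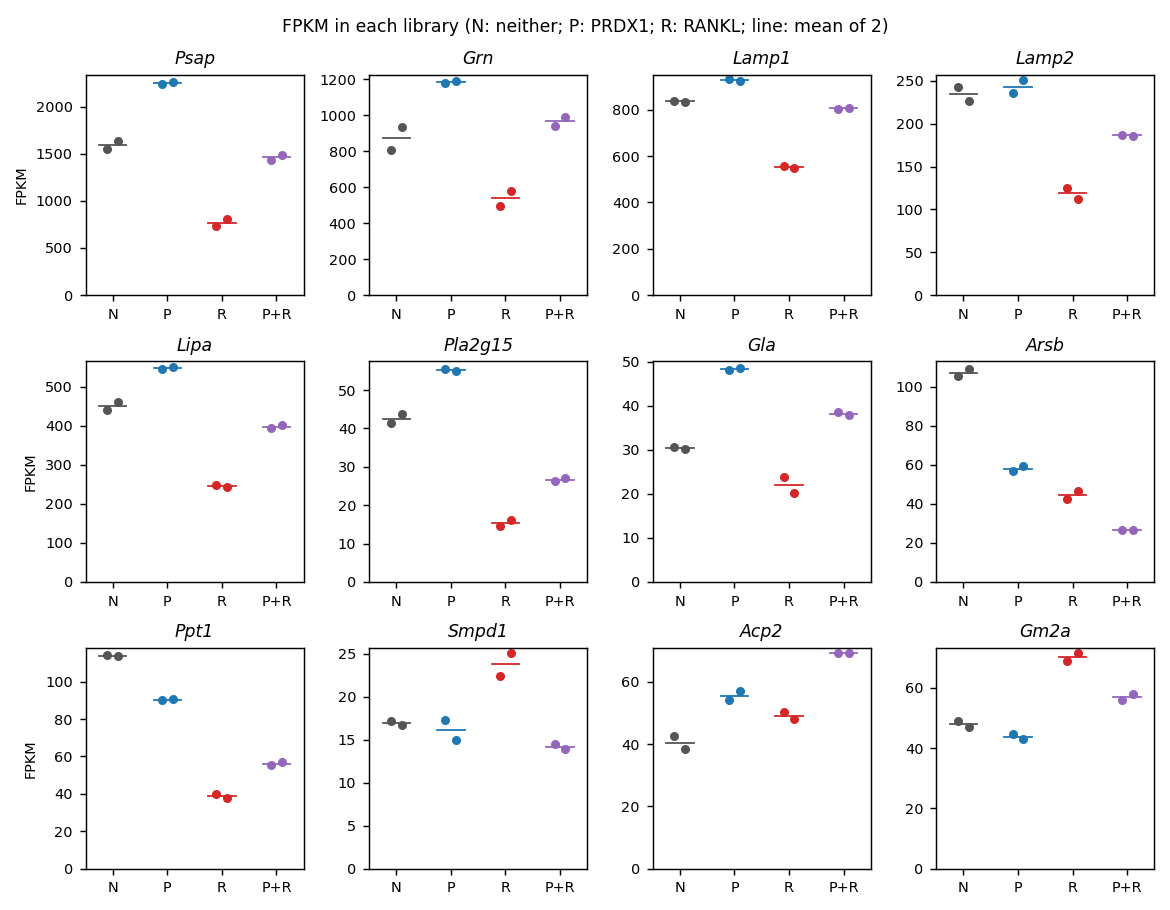
FPKM (vertical axes from 0) of 12 members in each library, by group (N neither, P PRDX1, R RANKL, P+R both), with points for libraries and lines for means of 2. Psap is lowest with RANKL alone (730 and 808 FPKM) and highest with PRDX1 alone (2240 and 2265), Arsb is lowest with both agents, and Smpd1 and Gm2a are highest with RANKL alone.

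Among the peptidase, thioesterase, phosphatase and nuclease, Ppt1 and Acp2 were called in a comparison and Tpp1 and Dnase2a were not. Ppt1 (chr4:122836227-122859175), which removes palmitate from proteins, had 114 and 114 FPKM without either agent, 90.2 and 90.6 with PRDX1, 39.9 and 38.0 with RANKL and 55.4 and 56.9 with both. The 4 groups did not overlap. RANKL lowered Ppt1 more than any other member, with -1.52 ± 0.05 log2 (SE; adjusted p = 2.12e-09), and with PRDX1 present the difference was -0.68 ± 0.05 log2 (SE; adjusted p = 2.78e-06). PRDX1 gave -0.33 ± 0.05 log2 (SE; adjusted p = 0.000531) without RANKL and 0.52 ± 0.05 log2 (SE; adjusted p = 1.34e-05) with RANKL, opposite directions, and neither reached the fold threshold. Acp2 (chr2:91202912-91214098), a lysosomal acid phosphatase, had 42.5 and 38.5 FPKM without either agent, 54.1 and 57.1 with PRDX1, 50.3 and 48.1 with RANKL and 69.2 and 69.3 with both. Its highest libraries were those with both agents, whose difference from neither was 0.76 ± 0.06 log2 (SE; adjusted p = 3.81e-06), while PRDX1 gave 0.45 log2 (adjusted p = 0.000363) and 0.49 log2 (adjusted p = 0.000114) without and with RANKL. Of its exon bases 13.2% overlap Ddb2 on the opposite strand. Tpp1, the tripeptidyl peptidase, had group means of 72.8 to 82.0 FPKM, and Dnase2a, which digests DNA of engulfed cells, 51.0 to 54.7 FPKM, and neither passed both thresholds in any of the 6 contrasts.

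All 7 lysosomal membrane proteins were higher with PRDX1 added to RANKL by the adjusted p alone, beside 16.9% of all genes, and 1 of them, Lamp2, passed the fold threshold, beside 6.03%. Under RANKL without PRDX1, 3 fell (Lamp1, Lamp2 and Laptm5), beside 9.96% of all genes, 5 were lower by the adjusted p alone, beside 22.9%, and the median difference was -0.54. Lamp2 (chrX:38405049-38456460), needed for fusion of autophagosomes with lysosomes, had 243 and 227 FPKM without either agent, 236 and 251 with PRDX1, 125 and 112 with RANKL and 187 and 185 with both. The libraries without RANKL overlapped, those with both agents lay below them, and those with RANKL alone were lower still. RANKL without PRDX1 gave -0.98 ± 0.06 log2 (SE; adjusted p = 3.73e-07) and PRDX1 with RANKL 0.65 ± 0.06 log2 (SE; adjusted p = 1.83e-05), which was 0.57 and not called without no PRDX1 + RANKL replicate 2. PRDX1 without RANKL gave 0.05 ± 0.06 log2 (SE; adjusted p = 0.585).

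Lamp1 (chr8:13159161-13175338), the other abundant glycoprotein of the lysosomal membrane, had 839.7 and 833 FPKM without either agent, 934 and 924 with PRDX1, 556 and 548 with RANKL and 803 and 810.0 with both. The RANKL libraries were the lowest. Those with both agents lay just below those with neither, a difference of -0.05 log2 (adjusted p = 0.263) that was not called. It fell under RANKL, with -0.60 ± 0.04 log2 (SE; adjusted p = 2.88e-07), and voom gave -0.58, under the threshold. PRDX1 with RANKL gave 0.55 ± 0.04 log2 (SE; adjusted p = 1.63e-06), just under the fold threshold, and was called at 0.66 with quantile normalization, 0.60 with upper quartile scaling and 0.61 with median-of-ratios scaling. Of its exon bases 7.9% overlap Grtp1 on the opposite strand. Laptm5, found in lysosomes of blood cells, went from 395 ± 18.7 to 254 ± 20 FPKM under RANKL (SD, n = 2), a difference of -0.64 ± 0.07 log2 (SE; adjusted p = 2.35e-05) that was -0.56 and not called without no PRDX1 + RANKL replicate 1.

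Scarb2, the receptor that carries glucocerebrosidase to lysosomes, had -0.54 log2 (adjusted p = 6.47e-05) under RANKL and 0.47 log2 (adjusted p = 0.000351) with PRDX1 added. The RANKL difference was called at -0.61 to -0.64 with quantile, upper quartile or median-of-ratios scaling and at -0.65 when no PRDX1 + RANKL replicate 1 was left out. The differences with PRDX1 under RANKL were 0.34 log2 (adjusted p = 0.00104) for Mcoln1 and 0.24 log2 (adjusted p = 0.0205) for Cln3, a membrane protein whose loss causes a storage disease of neurons. Cd63, a tetraspanin of late endosomes, was highest with PRDX1 alone and lowest without either agent, at 277 ± 5.63 and 191 ± 0.547 FPKM. Its difference with PRDX1 was 0.54 log2 (adjusted p = 8.98e-06) without RANKL and 0.12 log2 (adjusted p = 0.0406) with it.

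Grn, which encodes progranulin, a secreted glycoprotein that is cut into granulins in the lysosome, was the second most abundant member. Grn (chr11:102430507-102436809) had 805 and 938 FPKM without either agent, 1178 and 1192 with PRDX1, 496 and 581 with RANKL and 939 and 992 with both. The RANKL libraries were the lowest and the PRDX1 libraries the highest. Those with both agents lay just above those with neither, a difference of 0.15 log2 (adjusted p = 0.16) that was not called. PRDX1 gave 0.45 ± 0.08 log2 (SE; adjusted p = 0.00256) without RANKL and 0.85 ± 0.08 log2 (SE; adjusted p = 2.31e-05) with it. RANKL without PRDX1 gave -0.69 ± 0.08 log2 (SE; adjusted p = 4.16e-05), which was -0.58 and not called when no PRDX1 + no RANKL replicate 2 or no PRDX1 + RANKL replicate 1 was left out.

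**Figure D4:**
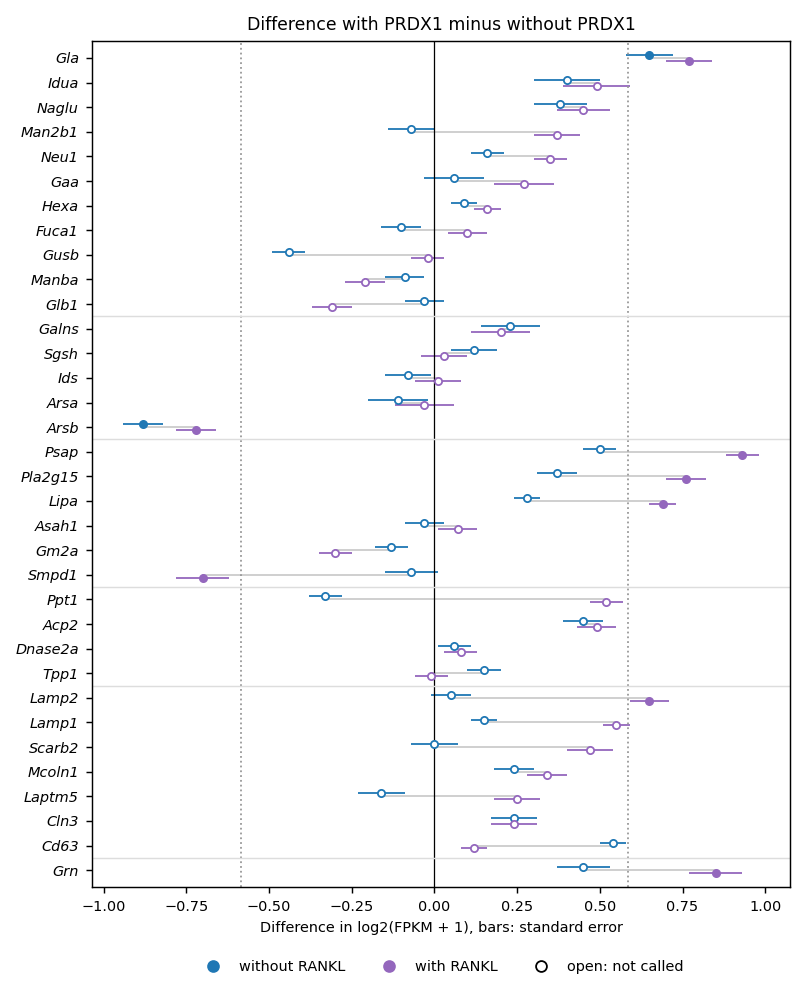
Differences in log2(FPKM + 1) with PRDX1 minus without PRDX1 (horizontal axis) for the 34 genes (vertical axis, lines between roles), without RANKL (blue) and with RANKL (purple), with standard errors as bars, filled points for called genes and dotted lines at a fold of 1.5. With RANKL, 26 of 34 purple points lie above 0, from -0.72 for Arsb to 0.93 for Psap.

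**Figure D5:**
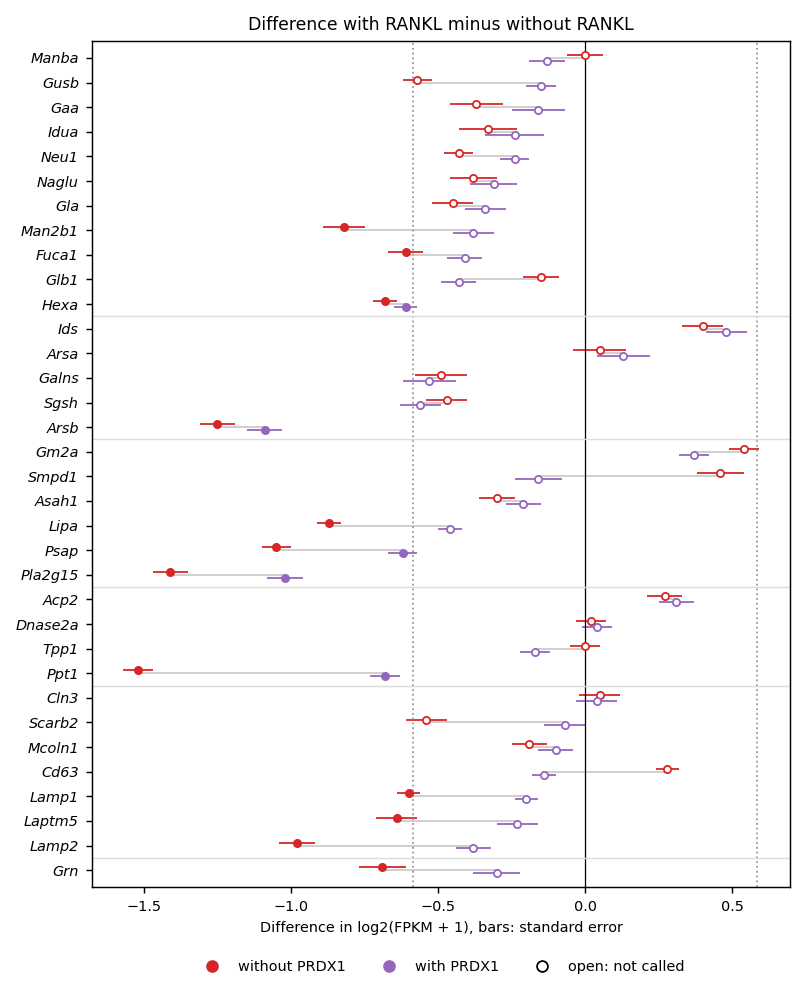
Differences in log2(FPKM + 1) with RANKL minus without RANKL (horizontal axis) for the 34 genes, without PRDX1 (red) and with PRDX1 (purple), drawn as in the plot of PRDX1 differences. Without PRDX1, 26 of 34 red points lie below 0, from -1.52 for Ppt1 to 0.54 for Gm2a.

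Whether the response to PRDX1 differed with RANKL was tested as an interaction, the PRDX1 difference with RANKL minus that without it. It was higher for 2 members, Ppt1 and Lamp2 (5.88%, beside 4.50% of all genes), and lower for 1, Smpd1 (2.94%, beside 4.35%), shares near those of all genes. For Ppt1 it was 0.85 ± 0.06 log2 (SE; adjusted p = 1.61e-05), and PRDX1 went with lower values alone and higher values under RANKL. For Lamp2 it was 0.60 ± 0.09 log2 (SE; adjusted p = 0.000774), and it was 0.55 and not called when no PRDX1 + no RANKL replicate 1 or PRDX1 + no RANKL replicate 1 was left out, and 0.52 when no PRDX1 + RANKL replicate 2 was. For Smpd1 it was -0.63 ± 0.11 log2 (SE; adjusted p = 0.00299), which was -0.53 when PRDX1 + no RANKL replicate 1 was left out and -0.55 when no PRDX1 + RANKL replicate 2 was, both not called, and had an adjusted p of 0.0619 with no filter on low genes. Psap, Lipa, Lamp1 and Grn had interactions of 0.43 log2 (adjusted p = 0.00251), 0.41 log2 (adjusted p = 0.0007), 0.40 log2 (adjusted p = 0.000386) and 0.40 log2 (adjusted p = 0.0326), all under the fold threshold, and Cd63 had -0.42 log2 (adjusted p = 0.000542). With quantile normalization the interaction was called for Psap at 0.89, for Grn at 0.72 and for Lamp1 at 0.70.

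Lysosomal genes outside the 34 gave the surroundings of these changes. Of 23 other hydrolases and cofactors tested, PRDX1 with RANKL raised 4, beside 6.03% of all genes, and lowered 1, beside 4.17%. The latter was Acp5, the tartrate-resistant acid phosphatase of osteoclasts, which is also among the osteoclast markers. Acp5 had 24.2 and 23.1 FPKM without either agent, 53.9 and 53.5 with PRDX1, 1073 and 1137 with RANKL and 158 and 166 with both, and its difference with PRDX1 was -2.76 log2 (adjusted p = 1.39e-09) under RANKL and 1.15 log2 (adjusted p = 2.16e-07) without it. Creg1, a glycoprotein of the lysosome lumen, and Ggh, which trims folate polyglutamates, rose under RANKL with PRDX1, by 0.94 log2 (adjusted p = 1.89e-07) and 0.77 log2 (adjusted p = 4.86e-05). Without RANKL, PRDX1 raised 3 of the 23, beside 3.80% of all genes, among them Hyal1, a hyaluronidase, at 1.04 log2 (adjusted p = 7.31e-05), and Npc2, which binds cholesterol, at 0.61 log2 (adjusted p = 3.52e-06). RANKL without PRDX1 raised 3 of these genes, beside 11.8% of all genes, and lowered 5, beside 9.96%.

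Of 26 other membrane proteins and transporters tested, 6 rose with PRDX1 under RANKL, beside 6.03% of all genes. The peptide and histidine transporter Slc15a3 had 82.3 and 77.5 FPKM without either agent, 130.3 and 135 with PRDX1, 13.1 and 15.0 with RANKL and 57.6 and 60.9 with both, so that its RANKL libraries were the lowest. Its difference with PRDX1 was 2.0 log2 (adjusted p = 1.63e-08) under RANKL and 0.72 log2 (adjusted p = 3.52e-05) without it. Slc11a1, a metal transporter of phagosomes, and Mcoln2, a relative of Mcoln1, had 1.53 log2 (adjusted p = 1.33e-08) and 1.28 log2 (adjusted p = 2.84e-05) under RANKL. Without RANKL, Mcoln2 rose by 0.70 log2 (adjusted p = 0.00247) and the cation channel gene Tpcn1 fell, with -0.59 log2 (adjusted p = 0.000405). RANKL without PRDX1 raised 1 of the 26, beside 11.8% of all genes, and lowered 7, beside 9.96%.

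Of 18 genes that sort hydrolases to lysosomes, PRDX1 alone raised Igf2r, the receptor for the mannose phosphate tag, by 1.44 log2 (adjusted p = 5.24e-06) and lowered Sort1, which encodes sortilin, with -0.62 log2 (adjusted p = 0.000231). Igf2r had 1.42 and 1.67 FPKM without either agent, 5.72 and 6.06 with PRDX1, 23.4 and 28.1 with RANKL and 19.9 and 22.2 with both, higher in the libraries with RANKL. Gnptab, which encodes part of the enzyme that makes the tag, had 25.1 and 25.4 FPKM without either agent, 22.6 and 23.1 with PRDX1, 49.6 and 51.5 with RANKL and 26.4 and 26.4 with both, and its difference with PRDX1 under RANKL was -0.91 log2 (adjusted p = 5.69e-07). RANKL without PRDX1 raised 5 of the 18, beside 11.8% of all genes, and lowered 3, beside 9.96%. PRDX1 alone raised 1 and lowered 1, beside 3.80% and 1.99%. Of 21 MiT/TFE factors and their regulators, which sense nutrients at the lysosome and switch on its genes, PRDX1 raised 1 without RANKL, the GTPase gene Rragd, at 0.62 log2 (adjusted p = 0.00425), and 1 with RANKL, Fnip2, at 0.76 log2 (adjusted p = 9.01e-06). The shares of all genes were 3.80% and 6.03%, so that 1 of 21 is near them. RANKL without PRDX1 raised Mitf and Tfec, beside 11.8% of all genes, and lowered Fnip2 and Lamtor4, beside 9.96%, again shares near those of all genes. Mitf had 0.88 log2 (adjusted p = 5.44e-07) under RANKL and an interaction of -0.89 log2 (adjusted p = 4.7e-05).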

How the data were processed

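RNA-seq values of 8 libraries, 2 in each of 4 groups taken from the labels, were used. The authors aligned reads to mm10 with HISAT2 and counted exon reads of RefSeq genes on both strands with HOMER, keeping 1 transcript per gene, to give the deposited FPKM values; DESeq2 is also named in the submitters' processing notes, and versions are not given in the sources used here. The table held 25124 genes and 0 columns of other per-sample values. Multiplied by transcript length, 100.0% of the FPKM values checked in each library came out as whole reads (tolerance 0.2 reads), which recovered the counts. Depth was 24542578 to 41712973 reads on genes, and floors of 3 reads cover counting error only.

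The fit was made with limma 3.58.1 (R 4.3.3) on log2(FPKM + 1), all 4 groups together and with the variance trend on intensity. Of the table, 11700 genes averaged 0.5 FPKM or more and were tested, with 4 residual degrees of freedom. Benjamini-Hochberg adjustment covered all of them. A call needed an adjusted p under 0.05 as well as a 1.5-fold change. The study used the same thresholds. The steps were also run on simulated data, with the same spread for every gene and changes in the PRDX1 + RANKL group only. That run checks the steps and not the results given here, because its spread and changes differ from those of these libraries. The members and lists were chosen with earlier results of these data known.

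Values in every library were given by rule for members called in a PRDX1 comparison or in the interaction, the 3 largest calls of each other comparison, and the 3 most abundant members. Up to 3 called genes per further list and PRDX1 comparison were named, and other genes named were chosen after their values were seen. Alternatives were other scalings (quantile, upper quartile, median of ratios), voom on the recovered reads, pseudocount 0.1, filters at 5 FPKM or none, no intensity trend, no fold threshold, a replicate block, and leaving out each library. Promoters came from RefSeq (GRCm38.p6) and exon overlaps from GENCODE vM21.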

Additional observations from a re-analysis of the deposited data

Results flagged for a closer look

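For 3 members the response to PRDX1 differed between cells with and without RANKL by the interaction term of limma. The difference of the responses on the log2(FPKM + 1) scale was 0.85 for Ppt1 (adjusted p = 1.61e-05), 0.60 for Lamp2 (adjusted p = 0.000774) and -0.63 for Smpd1 (adjusted p = 0.00299). Over all genes 4.50% were called higher and 4.35% lower in this term, near the shares of the members. The call was lost for Lamp2 in 3 leave-one-out fits (0.52 to 0.55), and for Smpd1 at -0.53 and -0.55 in 2 such fits and with no filter on low values (adjusted p = 0.0619). With groups of 2 libraries no single library could be tested as an outlier.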

How the results depend on the processing

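The 35 called member results were each recomputed under every alternative: 611 of the values kept direction and call, 19 kept direction but lost the call, 0 turned direction, and 25 of the 35 results kept their call throughout. Part of this agreement was fixed in advance. Other filters, no intensity trend, no fold threshold and the replicate block leave each difference as it was. So does leaving out a library of a group that is not compared. Without the fold threshold no call can be lost. Without the fold threshold, members higher and lower numbered 14 and 3 for PRDX1 without RANKL, 20 and 5 for PRDX1 with RANKL, 5 and 23 for RANKL without PRDX1, 3 and 22 for RANKL with PRDX1, 6 and 16 for both agents against neither (of 11700 genes, 2888 and 2280), and 11 and 3 for the interaction (of 11700 genes, 1307 and 1400). The median of the members became 0.31 for PRDX1 with RANKL under median-of-ratios scaling, -0.51 for RANKL without PRDX1 under quantile and upper quartile scaling and -0.54 under median-of-ratios scaling, and -0.31 for RANKL with PRDX1 under median-of-ratios scaling. The interaction had 5 members higher under quantile normalization (Ppt1, Lamp2, Psap, Grn and Lamp1), as had 534 of 11700 genes, and 0 lower with no filter on low values, beside 388 of 25124 genes. The causes of these shifts were not tested. Leaving out 1 library gave 0.16 to 0.32 for the median of PRDX1 with RANKL, -0.17 to -0.09 for that of both agents against neither, and 1 to 2 members higher and 0 to 1 lower in the interaction. Over all genes, RANKL without PRDX1 gave 1383 higher and 1165 lower by FPKM, but 1059 higher and 1386 lower with median-of-ratios scaling, and RANKL with PRDX1 gave 529 and 466 by FPKM, but 439 and 583 with that scaling. Replicate numbers were not taken to pair the libraries: deviations of like-numbered libraries correlated at 0.00847 to 0.0965. The numbers are those of the labels and columns, and the input names in the table's header carry other numbers for the libraries without RANKL, so which libraries are like-numbered is uncertain. With the replicate block the members called stayed at 6 higher and 2 lower for PRDX1 with RANKL and 12 lower for RANKL without PRDX1. Counting error and the spread between libraries were not separated.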
